A study of Homo sapiens with 4 samples.

Results

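The thioredoxin system genes TXNRD1, TXN, PRDX1 and SRXN1 were examined for binding of BACH1, a haem-binding basic leucine zipper repressor, by chromatin immunoprecipitation sequencing (ChIP-seq). Peaks were taken from the lists of 2 human airway epithelial cell lines, Calu3 (lung adenocarcinoma) and 16HBE14o- (bronchial epithelium), when their summit fell in the hg19 window of a gene, which reaches about 50 kb beyond the gene on each side. The 4 windows held 9 of the 10246 Calu3 peaks and 6 of the 3415 16HBE14o- peaks. Both lines were precipitated with the same rabbit antibody against BACH1, and the labels name no treatment or genotype for either. Each line was represented by 2 replicates, which the authors combined into 1 list, so no replicate spread is available and no difference between the lines was tested. The read depth of the lists is unknown, so a site listed for 1 line only may have been missed in the other.

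The thioredoxin system passes electrons from NADPH to oxidised proteins and peroxides. Thioredoxin reductase, a selenoprotein, reduces thioredoxin, which in turn reduces protein disulfides and the peroxiredoxins that remove hydrogen peroxide. Sulfiredoxin restores peroxiredoxins that have been oxidised too far to be reduced by thioredoxin. Genes of this system are well-known targets of NRF2, which, like BACH1, pairs with small MAF proteins and binds antioxidant response elements.

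The windows of all 4 genes held a BACH1 peak in both lines, and that of TXNRD1 held a pair of such sites. Peaks were placed by position alone, and other genes overlap some of the members. In RefSeq on GRCh38.p14, EID3, RPL18AP3 and TXNRD1-AS1 overlap TXNRD1, LOC107985423 overlaps SRXN1 and MMACHC overlaps PRDX1. A peak was counted as shared when it overlapped, by at least 1 bp, a peak listed for the other line. The 5 shared sites ranked from 219 to 990 by fold enrichment in Calu3 and from 61 to 812 by peak signal in 16HBE14o-. These columns are the authors' values on different scales, so ranks and percentiles (the share of peaks of a list with a lower value) were read within a list only. The shared sites lay at percentiles 90.3 to 97.9 in Calu3 and 76.2 to 98.2 in 16HBE14o-. The remaining 4 Calu3 peaks and 1 16HBE14o- peak had no counterpart and lay at percentiles 1.93 to 63.7 and 21.5. In these windows each shared peak thus stood above each unshared one of its list.

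Sharing was read against the whole lists. Of the 16HBE14o- peaks 5 of 6 in the windows were shared, against 46.4% of the list, and of the Calu3 peaks 5 of 9, against 15.3%. With a reciprocal overlap of 50% only the SRXN1 site counted as shared, 1 of 6 and 1 of 9. Under that rule 37.8% of the 16HBE14o- list and 12.6% of the Calu3 list were shared. At the other 4 shared sites the Calu3 peak was over 2 times as wide as its counterpart. Peaks so unequal in width cannot meet that rule at any position. Among strong peaks sharing by at least 1 bp was common. Of the 812 16HBE14o- peaks down to rank 812, that of the SRXN1 peak, 85.1% were shared, and of the 990 Calu3 peaks down to rank 990, that of a TXNRD1 site, 54.0% were. Both cutoffs are the ranks of the weakest shared sites by fold enrichment or peak signal, and the unshared peaks of the windows all lie below them. The Calu3 cutoff depends on the column. By −log10 p that TXNRD1 site ranked 580, ahead of the shared sites of SRXN1 (1038) and TXN (1061). The counts of 5 of 6 and 5 of 9 include those weaker peaks, so they cover an unlike set. The members are too few to set their share apart from that of peaks as strong.

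**Figure D1:**
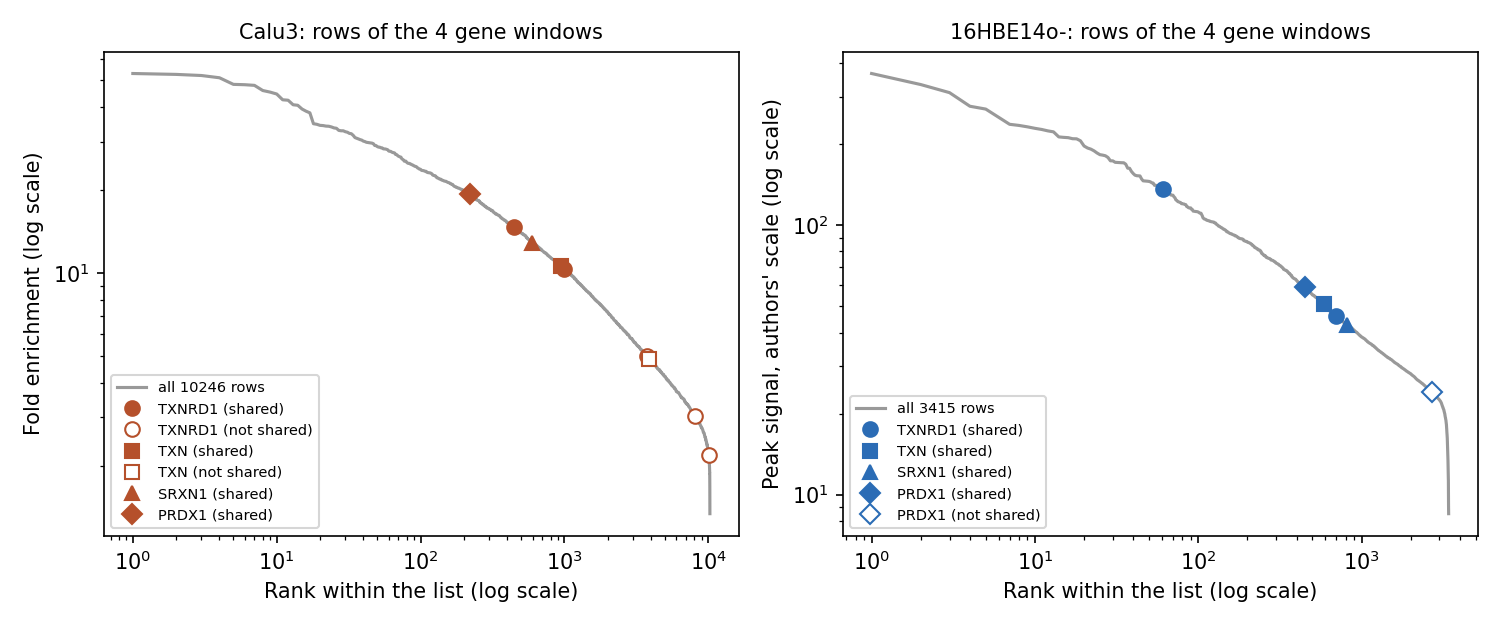
Each panel plots the authors' value of a peak (y, log scale; fold enrichment in Calu3, peak signal in 16HBE14o-) against its rank in the list (x, log scale), with all peaks as a grey line and the peaks of the 4 gene windows as symbols. Filled symbols are peaks shared between the lists and open symbols are not; the 5 filled symbols of each panel lie at ranks 219 to 990 in Calu3 and 61 to 812 in 16HBE14o-.

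TXNRD1, which encodes the cytosolic thioredoxin reductase, held the strongest 16HBE14o- peak of the 4 genes. It lay on chromosome 12 from 104613255 to 104613318, with a peak signal of 136 (rank 61), about 4.3 kb into the gene from its 5′ end. The Calu3 peak at the same site, from 104613097 to 104613641, had a fold enrichment of 14.7 (rank 443), and the summits were 14 bp apart. By the authors' −log10 p, 73.7, the Calu3 peak ranked 278. The 16HBE14o- peak was only 64 bp wide, whereas 98.4% of that list were exactly 240 bp wide, and 5 peaks of the list were as narrow or narrower.

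The other shared TXNRD1 site lay about 71.7 kb into the gene, 67.4 kb from the former in both lines. In 16HBE14o- it ran from 104680591 to 104680830 with a peak signal of 46.0 (rank 701). In Calu3 it ran from 104680492 to 104681013 with a fold enrichment of 10.4 (rank 990). By −log10 p, 50.3, this Calu3 peak ranked 580. Both lists placed this site below the one at 4.3 kb. No replicate error is available to say by how much the sites of a line differ.

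Calu3 had 3 further TXNRD1 peaks. The strongest of them, from 104682449 to 104682687, had a fold enrichment of 5.03 (rank 3716, −log10 q 6.76) and its summit was 1824 bp from that of the shared site at 71.7 kb. The peak from 104671226 to 104671387, about 62.3 kb into the gene, had a fold enrichment of 3.03 and a q of 0.148. The peak from 104613972 to 104614138, whose summit was 750 bp from the strong summit at 4.3 kb, had a fold enrichment of 2.19 and a −log10 q of 0. The last 2 thus had a q of 0.05 or more, as did 26.7% of all Calu3 peaks.

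RefSeq's promoters on GRCh38.p14 include 2 for TXNRD1, whose starts are 71.3 kb apart on that build. The 250 bases before each are shown because one of the shared sites lay about 71.7 kb into the gene from its 5′ end on hg19. That distance and the spacing of the 2 starts are alike to within the about 1 kb to which gene edges are known. Positions were not converted between the builds, so whether a peak covers either stretch was not determined. On hg19 the peak nearest the gene's 5′ end had its summit about 4.3 kb into the gene in both lines. Capitals mark matches to TGACNNNGC, the core of the antioxidant response element, on either strand. The first stretch is chr12:104215529-104215778 and the second chr12:104286782-104287031, both on the plus strand.
TXNRD1 first start: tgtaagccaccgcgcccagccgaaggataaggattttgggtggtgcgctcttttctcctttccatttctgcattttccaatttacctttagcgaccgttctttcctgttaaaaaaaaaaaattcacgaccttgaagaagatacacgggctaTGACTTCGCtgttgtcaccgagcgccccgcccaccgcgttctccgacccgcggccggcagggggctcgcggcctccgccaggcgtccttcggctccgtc
TXNRD1 second start: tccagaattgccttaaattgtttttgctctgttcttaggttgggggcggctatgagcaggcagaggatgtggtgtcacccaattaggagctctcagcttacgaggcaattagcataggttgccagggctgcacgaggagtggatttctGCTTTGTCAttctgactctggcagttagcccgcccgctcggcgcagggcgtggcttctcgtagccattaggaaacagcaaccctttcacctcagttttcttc
The first has the match TGACTTCGC from 99 to 91 bases before the start, and a further match on the other strand, GCTCCGTCA, that begins 8 bases before the start and ends on it, so it is not in capitals. The second has the match GCTTTGTCA, read on the other strand, from 102 to 94 bases before the start. Of the 35116 RefSeq promoters in the table, each with 250 bases before and 50 after a start, 13.3% hold TGACNNNGC on either strand. A match of letters is a description and shows no binding.

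TXN encodes thioredoxin itself, the small disulfide reductase of the system. Its shared site lay at the 5′ end of the gene, about 0.2 kb upstream, with an edge of the gene known to about 1 kb. In 16HBE14o- the peak ran on chromosome 9 from 113019089 to 113019328, with a peak signal of 51.1 (rank 585). In Calu3 it ran from 113018963 to 113019605, with a fold enrichment of 10.6 (rank 943), and the summits differed by 16 bp. Calu3 had another peak about 27.2 kb upstream, from 113046080 to 113046277, with a fold enrichment of 4.90 (rank 3855, −log10 q 4.48). No 16HBE14o- peak came closer to it than 26.9 kb. On that side the next protein-coding gene in RefSeq's order is TXNDC8, a thioredoxin-domain gene.

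PRDX1, which encodes a peroxiredoxin that uses thioredoxin to reduce hydrogen peroxide, had the strongest Calu3 peak of the 4 genes. On chromosome 1 this peak ran from 45987400 to 45987881, about 1.3 kb into the gene from its 5′ end. Its fold enrichment was 19.4 (rank 219, −log10 p 68.1). The 16HBE14o- peak, from 45987556 to 45987795, had a peak signal of 59.0 (rank 449), and its summit was 5 bp away, the smallest distance among the 5 shared sites. In 16HBE14o- a weaker peak lay about 27.6 kb upstream of PRDX1, from 46016487 to 46016726, with a peak signal of 24.1 (rank 2682). The nearest Calu3 summit was that at PRDX1 itself, 28.9 kb away. The next protein-coding gene on that side in RefSeq's order is AKR1A1, which encodes an NADPH-dependent aldehyde reductase. The peak was not assigned to either gene.

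SRXN1, which encodes sulfiredoxin, had 1 peak in each list and no other within its window. The site lay at the 5′ end of the gene, about 0.1 kb upstream, on chromosome 20. In 16HBE14o- it ran from 633994 to 634233 with a peak signal of 42.8 (rank 812), the lowest of the 5 shared sites. In Calu3 it ran from 633939 to 634294 with a fold enrichment of 12.9 (rank 597), the third of the 5, and the summits were 15 bp apart. The order in Calu3 depended on the column. By −log10 p (32.9) the SRXN1 peak ranked 1038, close to the TXN peak at 1061.

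The promoters of TXN and SRXN1 are shown because the shared peaks of both genes lay within about 1 kb of the 5′ end. The stretches are the 250 bases before each start from RefSeq on GRCh38.p14, chr9:110256508-110256757 and chr20:653201-653450, both on the minus strand.
TXN: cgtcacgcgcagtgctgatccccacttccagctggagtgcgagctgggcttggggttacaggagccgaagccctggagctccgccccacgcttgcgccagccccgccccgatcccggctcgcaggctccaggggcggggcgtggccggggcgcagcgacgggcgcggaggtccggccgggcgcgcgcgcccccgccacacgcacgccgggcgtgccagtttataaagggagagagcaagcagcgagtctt
SRXN1: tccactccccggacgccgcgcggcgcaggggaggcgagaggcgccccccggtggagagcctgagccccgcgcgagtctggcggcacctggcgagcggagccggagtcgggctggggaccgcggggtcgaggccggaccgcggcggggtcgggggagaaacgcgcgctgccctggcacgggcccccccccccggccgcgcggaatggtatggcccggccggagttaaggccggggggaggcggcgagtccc
Neither holds TGACNNNGC, nor did any of the 4 promoters searched (1 of TXN, 1 of SRXN1 and 2 of TXNRD1) hold TGAGTCA or the longer GCTGAGTCA, searched on both strands over 300 bases (GCTGAGTCA contains TGAGTCA). These are held by 4.95% and 0.561% of all the promoters. This says only that those letters are not in these windows. Whether the shared peaks of TXN and SRXN1 cover the stretches was not determined, as positions were not converted between the builds. The sequences under the peaks were not searched. Over their 300 bases the share of G and C was 70.0% in TXN and 80.0% in SRXN1 against a median of 58.7% over all promoters. For the first and second start of TXNRD1 it was 58.0% and 53.7%.

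**Figure D2:**
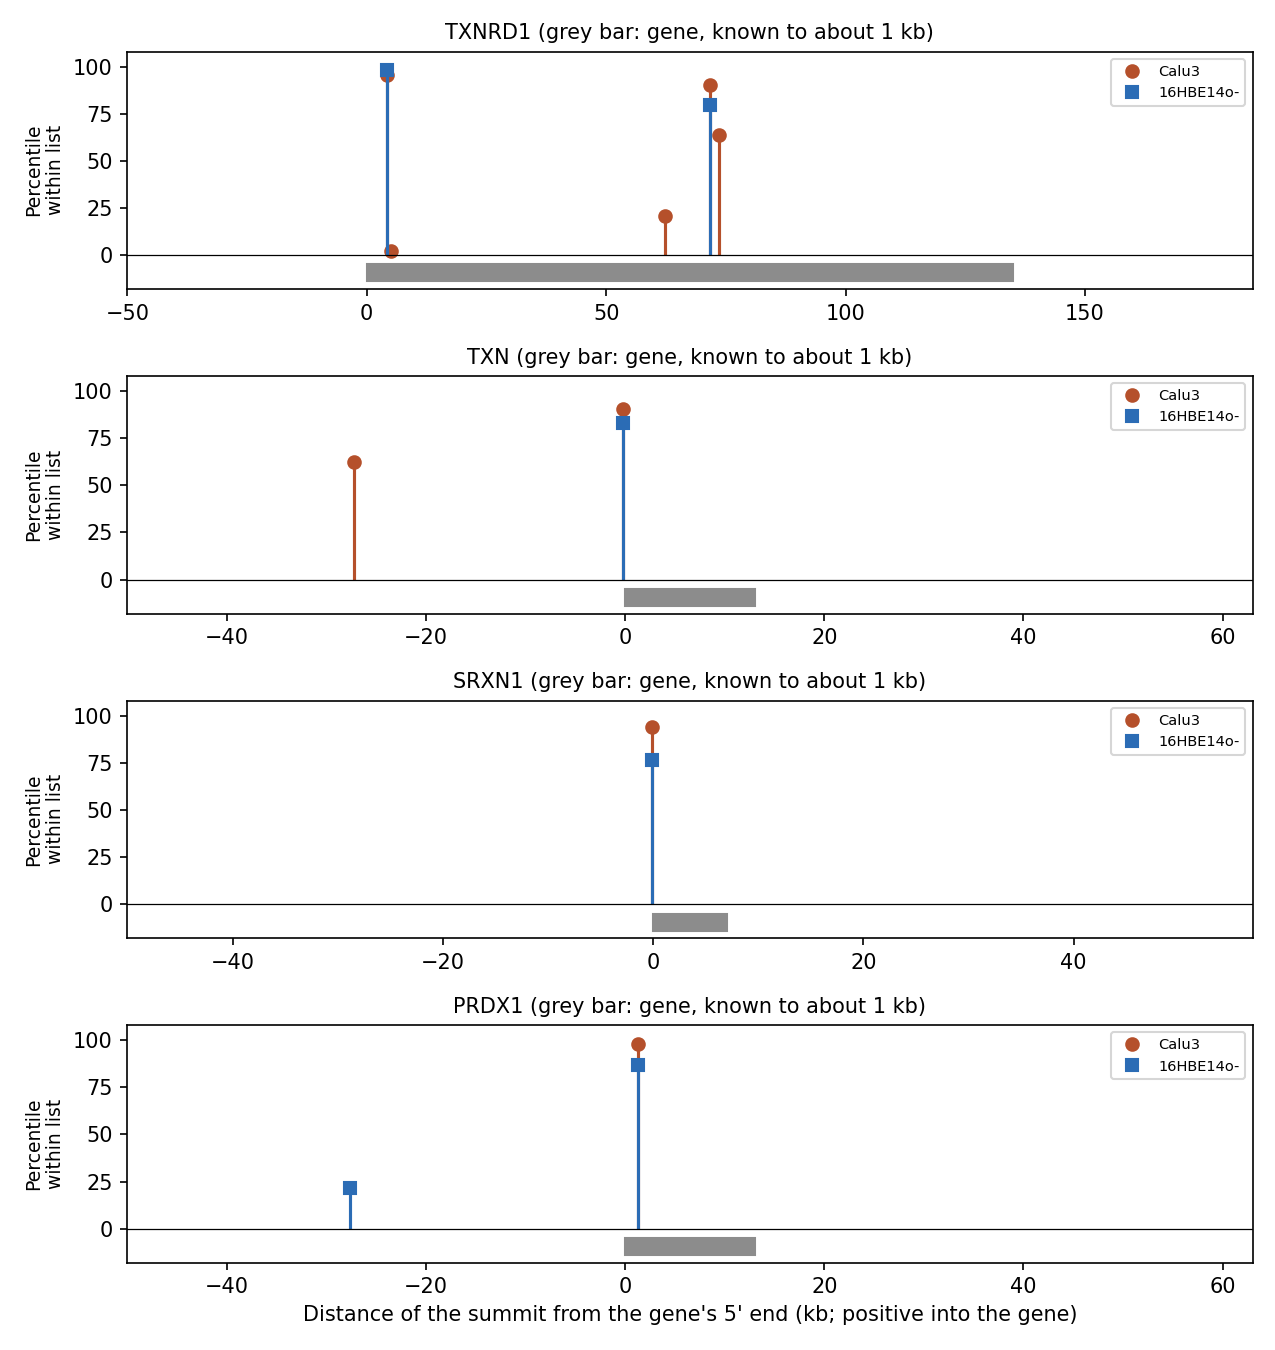
Each panel shows 1 gene as a grey bar, with the distance of each peak summit from the gene's 5′ end on the x axis (kb, positive into the gene, over the whole window) and its percentile within its list on the y axis. Circles are Calu3 peaks and squares 16HBE14o- peaks; TXN, SRXN1 and PRDX1 have their highest peak in both lines within about 1.3 kb of the 5′ end, and TXNRD1 has shared sites at 4.3 and 71.7 kb.

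The 5 shared sites had nearly the same summit in both lists. The summits differed by 5 to 20 bp, and in 4 of the 5 the Calu3 summit had the higher coordinate, against 46.6% of all shared 16HBE14o- peaks. Over all 1585 shared 16HBE14o- peaks, 53.3% had summits within 20 bp, with a median of 19 bp. The cutoff of 20 bp is the largest distance among the 5 sites, so all 5 meet it by construction. Each of the 5 16HBE14o- peaks lay wholly inside its Calu3 counterpart, against 60.3% of all shared 16HBE14o- peaks. The Calu3 peaks were 356 to 643 bp wide here, against a median of 235 bp over the Calu3 list. How close the summits of peaks as strong lie, and how often peaks as strong or as wide lie inside their counterpart, was not tested. At PRDX1 the Calu3 peak was 482 bp wide, and the overlap was 49.8% of it.

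**Figure D3:**
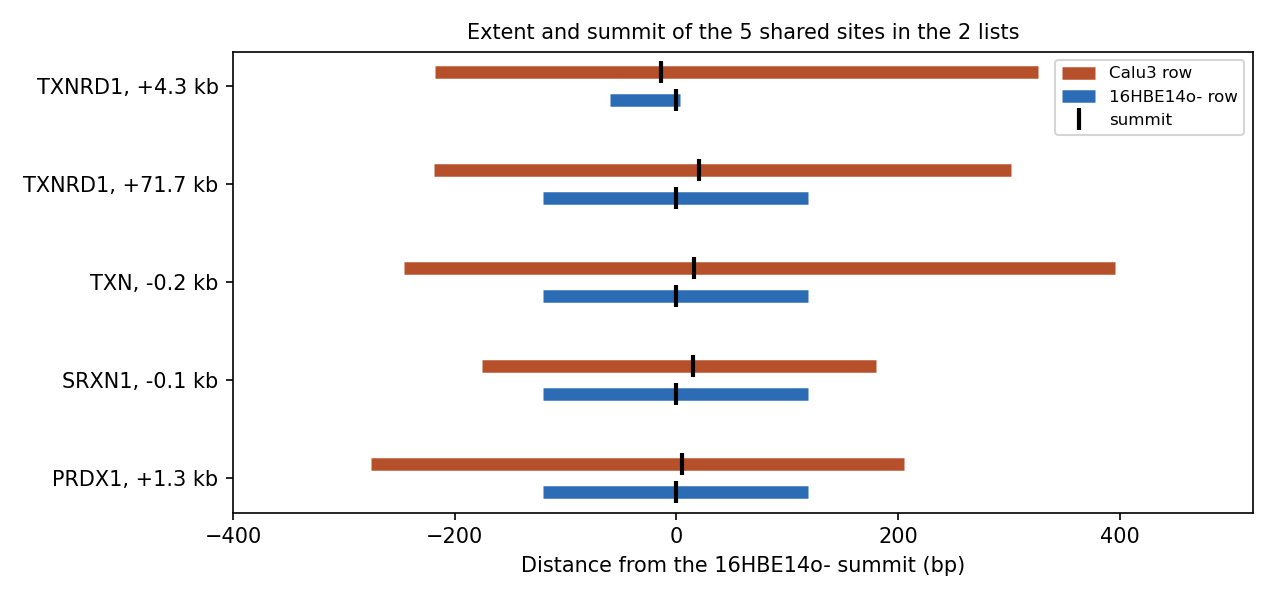
Horizontal bars give the extent of the Calu3 and 16HBE14o- peaks at the 5 shared sites, as the distance in bp from the 16HBE14o- summit (x), and black ticks mark the summits. The label of each site gives the gene and the distance from its 5′ end in kb; the ticks of a site are 5 to 20 bp apart, and the narrow 64 bp peak is that of TXNRD1 at 4.3 kb.

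The order of the genes by their best peak differed between the lists. It was PRDX1, TXNRD1, SRXN1 and TXN in Calu3, at fold enrichments of 19.4, 14.7, 12.9 and 10.6. In 16HBE14o- it was TXNRD1, PRDX1, TXN and SRXN1, at peak signals of 136, 59.0, 51.1 and 42.8. By −log10 p the Calu3 order began with TXNRD1 at rank 278 and PRDX1 at rank 322 instead. Without replicate values, none of the neighbours in either order can be said to differ, and the ranks of lists of unequal length show no change between the lines.

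A shared peak was present in each of the 4 windows. When each list's span was divided into tiles of the window's length, a shared peak was found in 10.1% of Calu3 and 10.4% of 16HBE14o- tiles of 235 kb (TXNRD1), in 5.31% and 5.40% of tiles of 113 kb (TXN and PRDX1), and in 5.06% and 5.15% of tiles of 107 kb (SRXN1). Any peak was found in 43.4% and 17.8% of tiles of 235 kb, 26.3% and 9.89% of those of 113 kb and 25.1% and 9.46% of those of 107 kb, in the same order of lines. As many as the 2 shared sites of TXNRD1 were in 1.87% of the Calu3 and 1.93% of the 16HBE14o- tiles, and as many as its 5 Calu3 peaks in 2.24%. Without Calu3 peaks of q 0.05 or more TXNRD1 had 3, and 5.17% of tiles held as many. In the upper 50% of the Calu3 list it also had 3, and 2.45% of tiles did. Tiles are placed without regard to genes, whereas each window is centred on one, so these shares are a description.

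Beyond the window edges the closest peak was a Calu3 peak 12.7 kb outside the TXN window (fold enrichment 6.35, rank 2487), followed by one 38.9 kb outside that of TXNRD1 (fold enrichment 2.96, rank 8406). The next peaks on the remaining sides were 100.8 to 1422.1 kb outside. In 16HBE14o- the nearest other summit to that of TXN was 735.9 kb away, and in Calu3 the nearest to those of SRXN1 and PRDX1 were 271.4 and 255.5 kb away.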

How the data were processed

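Peaks had been combined from 2 replicates per line by the irreproducible discovery rate, per the labels, and hg19 was the build, per the submitters' processing notes. The tools of alignment and peak calling, and any control library, were not given in the sources used here. The Calu3 columns that the authors deposited are a fold enrichment (read as such from the format), the −log10 p and −log10 q, and a browser score. The 16HBE14o- columns, as deposited, are a peak signal whose scale is unstated, a browser score, and in the place of the q column a score that goes below 0 and was not used as a q. Each list pools its replicates, so no fit, test or replicate error was possible.

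Windows were those of the rule. Gene edges were taken as the window edges moved in by 50 kb, so distances are good to about 1 kb. TXN, PRDX1 and SRXN1 lie on the minus strand and TXNRD1 on the plus strand. Ranks are by fold enrichment or peak signal, ties sharing the lowest. Coordinates are 1-based. Every peak of the 4 windows is named. Genes, lists and rules were chosen with earlier results of these data known. Promoters matched 3 of the 4 genes by symbol (RefSeq, GRCh38.p14). Overlapping genes, and neighbouring genes by order only, were taken from RefSeq on that assembly. A further 21 genes of the pathway were to be surveyed with an hg19 annotation and were not analysed here. Alternatives changed the overlap rule, window margin, list, ranking column and tile placement. The counting and motif search were tested on simulated data. Python 3.11.15, numpy 2.4.6 and pandas 2.3.3 were used.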

Additional observations from a re-analysis of the deposited data

How the results depend on the processing

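The numbers of peaks in the 4 windows together, and the share of tiles with a peak, stayed within 1.5 times their value under every alternative run. The number of shared peaks stayed at 5 in each list with summits within 100 or 500 bp, without Calu3 peaks of q 0.05 or more, and in the upper 50% of each list. Under a reciprocal overlap of 50% it was 1 in Calu3 and 1 in 16HBE14o-, that of SRXN1, since at the other 4 sites the Calu3 peak was over 2 times as wide as that of 16HBE14o-. The share of the whole lists under that overlap, and the tile shares for 3 TXNRD1 peaks, were added after seeing the data. With a margin of 25 or 10 kb the upstream Calu3 peak of TXN and the upstream 16HBE14o- peak of PRDX1 dropped out, leaving 1 peak each. Without Calu3 peaks of q 0.05 or more, TXNRD1 had 3 Calu3 peaks. Ranking 16HBE14o- by the score in the place of the q column put 5 of its 6 peaks level with 1055 peaks at its maximum, so that column orders none of them. No paired analysis was possible because the lists hold no values per replicate. For the same reason no replicate could be left out.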
